A study of Mus musculus with 6 samples.

Results

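The genes described here are 10 genes of the MHC class I antigen presentation pathway, chosen by name from a table of 18122 rows: the heavy chains H2-K1, H2-D1 and H2-T23, the light chain B2m, the peptide transporter subunits Tap1 and Tap2, the peptide editors Tapbp (tapasin) and Tapbpl (TAPBPR), the peptide-trimming enzyme Erap1 and the class I transactivator Nlrc5. All 10 had a row, and all 10 were among the 9691 genes that entered the tests, those averaging 1 or more FPKM over the libraries. FPKM, fragments per kilobase of gene per 1000000 mapped, is a level scaled for gene length and library depth. CD8+ T cells from mouse lymph nodes were grown for 18 h on plate-bound anti-CD3 with soluble anti-CD28 (each at 1 µg/mL), IL-4 at 20 ng/mL and IFN-α at 50 ng/mL, a mixture meant to give virtual memory cells in culture, then sorted by surface CD44 and profiled by bulk RNA-seq. The 6 libraries were 1 WT CD44lo, 2 WT CD44hi (called CD44super-high in the design text), 1 Dusp2-/- CD44lo and 2 Dusp2-/- CD44hi. All groups, the controls included, thus received type I interferon, and no unstimulated sample was analysed here. The treatment text of the labels names Cd4-Cre Rpa1 fl/fl mice in place of Dusp2-/- mice, while the sample titles and the design text name Dusp2-/-. Dusp2, the phosphatase gene named by the genotype, stood at 82.6 to 116 FPKM in the WT libraries and at 0 to 0.0283 in the Dusp2-/- libraries, and Rpa1 at 27.4 to 41.4 FPKM in all 6. Cd44 stood at 65.3 to 79.9 FPKM in the CD44hi libraries and at 1.33 and 1.43 in the CD44lo ones.

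A class I molecule is a heavy chain held by β2-microglobulin that carries a short peptide to the cell surface, where CD8 T cells and NK receptors read it. Peptides cut by the proteasome are pumped into the endoplasmic reticulum by the Tap1-Tap2 transporter, trimmed by Erap1, and loaded onto the heavy chain under the control of tapasin, with TAPBPR as a second editor. Interferons raise the whole set through the transcription factors they activate, and Nlrc5 acts on a conserved block of X and Y boxes in the promoters of class I genes. H2-K1 and H2-D1 are the classical heavy chains, and H2-T23 encodes Qa-1, the chain read by the CD94-NKG2A receptor (Klrd1 and Klrc1). By the RefSeq gene table, 6 of the 10 genes lie on chromosome 17, in or beside the MHC (H2-K1, H2-D1, H2-T23, Tap1, Tap2 and Tapbp), while B2m is on chromosome 2, Tapbpl on 6, Nlrc5 on 8 and Erap1 on 13. Dusp2 is on chromosome 2 too, with 49 protein-coding genes between it and B2m.

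Promoters are shown for the 3 heavy chains, B2m and Erap1. All but that of Erap1 hold both the CCAAT box and the interferon element described below, and Erap1 holds only the latter. The promoters are the 250 bases before the RefSeq start (build GRCm38.p6), written 5′ to 3′ on the gene's own strand. Of the 10 genes, 7 had an entry. Capitals mark matches, on either strand, to any of 4 motifs. The Y box core is ATTGG, also known as a CCAAT box by its other strand. The cyclic AMP element core, part of the X2 box, is TGACG here. The NF-κB site is GGGATTCCC in the search, and the interferon element core is GAAANNGAA or GAANNGAAA. The letters were chosen knowing what class I promoters carry. The windows are, in order, chr17:34000348-34000597 on the minus strand, chr17:35262844-35263093 on the plus strand, chr17:36032702-36032951 on the minus strand, chr2:122147437-122147686 on the plus strand and chr13:74639603-74639852 on the plus strand.
H2-K1: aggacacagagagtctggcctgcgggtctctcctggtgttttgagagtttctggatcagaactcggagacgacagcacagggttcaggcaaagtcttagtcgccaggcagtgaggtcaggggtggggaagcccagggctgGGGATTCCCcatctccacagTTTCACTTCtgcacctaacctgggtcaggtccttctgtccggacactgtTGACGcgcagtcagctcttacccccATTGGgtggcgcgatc
H2-D1: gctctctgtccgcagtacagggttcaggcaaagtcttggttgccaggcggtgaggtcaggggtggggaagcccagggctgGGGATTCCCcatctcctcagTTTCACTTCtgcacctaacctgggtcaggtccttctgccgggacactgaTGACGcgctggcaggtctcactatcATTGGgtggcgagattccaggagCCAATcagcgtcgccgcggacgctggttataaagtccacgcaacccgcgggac
H2-T23: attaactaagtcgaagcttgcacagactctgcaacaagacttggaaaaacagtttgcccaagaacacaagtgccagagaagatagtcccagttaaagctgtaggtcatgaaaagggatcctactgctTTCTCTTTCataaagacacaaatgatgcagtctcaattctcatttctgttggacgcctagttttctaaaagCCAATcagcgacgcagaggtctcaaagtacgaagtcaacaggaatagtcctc
B2m: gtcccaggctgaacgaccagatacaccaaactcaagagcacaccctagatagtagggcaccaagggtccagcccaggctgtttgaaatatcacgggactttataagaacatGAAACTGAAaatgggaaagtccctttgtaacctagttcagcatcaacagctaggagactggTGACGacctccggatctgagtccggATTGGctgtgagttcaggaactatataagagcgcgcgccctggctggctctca
Erap1: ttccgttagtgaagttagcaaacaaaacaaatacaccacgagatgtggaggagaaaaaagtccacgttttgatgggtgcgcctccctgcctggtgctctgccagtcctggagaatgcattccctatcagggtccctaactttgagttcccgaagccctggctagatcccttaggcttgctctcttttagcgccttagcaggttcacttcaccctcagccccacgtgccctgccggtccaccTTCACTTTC

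The H2-K1 and H2-D1 windows each held all 4 motifs, in the order NF-κB site, interferon element, cyclic AMP element and CCAAT box. Their match began 110 bases before the start for the NF-κB site of H2-K1 and 170 for that of H2-D1. Over the best local alignment of both windows, 161 of 177 columns were identical (91.0%). Only 4 of 32851 promoters of this length in the table held all 4 motifs (0.0122%), and those were both listed starts of H2-K1, H2-D1 and H2-Q7, another class I heavy chain. B2m held the interferon element (139 bases before the start), the cyclic AMP core (78) and the CCAAT box (53), a combination found in 223 of the 32851 promoters (0.679%). H2-T23 held the interferon element and the CCAAT box. Of the other entries, Tap1 held a CCAAT box and a cyclic AMP core, and Tapbp held 2 CCAAT boxes. Erap1 held only an interferon element match, 9 bases before its start. Single motifs were common, with the CCAAT box in 33.9% of promoters, the cyclic AMP core in 17.8% and the interferon element in 12.5%, whereas the NF-κB letters were in 0.301%. A match is a description of these letters and not evidence of binding.

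Class I genes have close copies, so reads can be shared between them. Of the distinct 100-base stretches in the GENCODE M21 transcripts of H2-K1, 0.957% also occurred in another gene's transcript, with 3.59% for H2-D1 and 3.15% for H2-T23. At 50 bases the shares were 9.63%, 12.8% and 13.6%. For the other 7 genes they were at most 3.52% at 50 bases (Tapbpl) and 0.0888% at 100 bases (Tapbpl). Values of the 3 heavy chains are therefore uncertain to the extent that reads in these stretches were assigned to the wrong copy. How such reads were counted is not given in the sources used here.

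B2m was the most abundant of the 10 genes in every library, and the classical heavy chains came next. The order B2m, H2-K1, H2-D1, H2-T23, Tapbp, Tap1, Tapbpl was the same in all 6 libraries, while the order of the 3 lowest genes, Tap2, Erap1 and Nlrc5, varied. Within a library, per length, B2m stood at 2.68 to 3.58 times H2-K1. H2-D1 stood at 0.713 to 0.777 times H2-K1 and H2-T23 at 0.240 to 0.260 times, so that the proportions among the 3 heavy chains were nearly the same in both fractions and genotypes. None of the genes moved far. The ratio of the highest to the lowest library was 1.40 (Tap1) to 1.78 (Tapbpl).

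The libraries held 23490008 (Dusp2-/- CD44lo) to 55830235 reads by recovery from the FPKM steps, and the FPKM totals were 301211 to 332997, highest in Dusp2-/- CD44lo. Reads of the 13 mitochondrial transcripts were 2.03% to 2.15% of all reads in WT CD44hi, 2.56% in WT CD44lo, 2.73% and 2.94% in Dusp2-/- CD44hi and 3.79% in Dusp2-/- CD44lo. The 2 WT CD44hi libraries stood apart in these genes. All 10 were higher in WT CD44hi replicate 1 than in replicate 2, by 0.18 to 0.43 on the log2(FPKM + 1) scale (median 0.25, against 0.04 over all genes tested). In Dusp2-/- CD44hi, 8 of 10 were higher in replicate 1, with a median of 0.07 and a range of -0.14 to 0.12. The labels do not say whether libraries of a group came from separate animals, so p-values measure the spread between these libraries, which may be technical. In bulk RNA, fewer cells with a transcript and less of it per cell cannot be told apart.

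**Figure D1:**
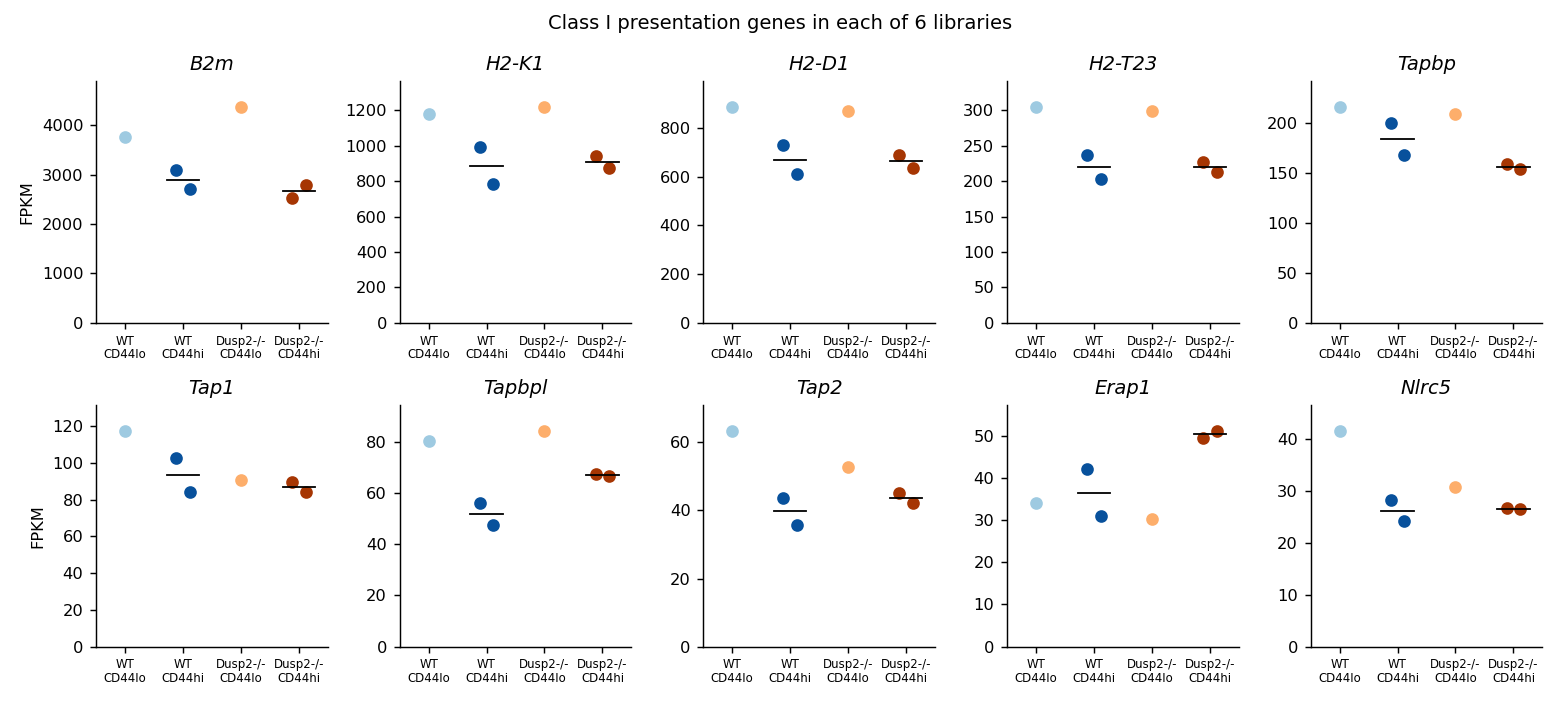
FPKM (linear axis from 0) of each gene in each of the 6 libraries, with 1 point per library and a line at the mean of each CD44hi pair. The 2 CD44lo libraries sit above all 4 CD44hi libraries for every gene but Tap1 and Erap1.

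The first comparison asks how the sorted CD44hi cells differ from CD44lo cells of the same culture conditions. Values lay below CD44lo for 9 of the 10 genes in each genotype. Of these, 4 passed the test in WT and 3 in Dusp2-/-, beside 10.7% and 16.5% of all genes called lower. The 3 heavy chains differed by about the same amount in both genotypes, and Erap1 was the exception in direction. H2-K1 stood at 1178 FPKM in WT CD44lo and 1219 in Dusp2-/- CD44lo, against 990 and 785 in the WT CD44hi libraries and 944 and 876 in the Dusp2-/- CD44hi libraries. H2-D1 stood at 886 and 870 FPKM in the WT and Dusp2-/- CD44lo libraries, against 729 and 609 in WT CD44hi and 689 and 636 in Dusp2-/- CD44hi. For both chains the 2 CD44lo libraries lay above all 4 CD44hi libraries, which was so for 15.1% of genes tested.

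The differences were alike for both classical chains. Log2 differences are CD44hi minus CD44lo in limma's fit on log2(FPKM + 1), and a gene is called where its Benjamini-Hochberg adjusted p over all genes tested is under 0.05. H2-K1 differed by -0.42 in WT (SE 0.168, adjusted p = 0.112) and by -0.42 in Dusp2-/- (SE 0.168, adjusted p = 0.0862). H2-D1 differed by -0.41 (SE 0.145, adjusted p = 0.0797) and -0.39 (SE 0.145, adjusted p = 0.0690). Without WT CD44hi replicate 1 or 2 the WT value of H2-K1 was -0.59 or -0.25. Neither was called, although their mean in CD44hi was 0.746 to 0.761 of the CD44lo value. Each fraction comparison sets 2 libraries against 1, and the fit assumes that the lone CD44lo library varies like the CD44hi pairs.

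H2-T23 was called in both genotypes. It stood at 305 FPKM in WT CD44lo and 300 in Dusp2-/- CD44lo, against 237 and 204 in WT CD44hi and 227 and 213 in Dusp2-/- CD44hi. Its log2 difference was -0.47 in WT (SE 0.117, adjusted p = 0.0288) and -0.45 in Dusp2-/- (SE 0.117, adjusted p = 0.0240). The Dusp2-/- call was lost without replicate 1 (adjusted p = 0.0636) or replicate 2 (0.134) of Dusp2-/- CD44hi, and when libraries were rescaled to an equal FPKM total (0.0804). The receptor chains that read Qa-1 moved the other way in WT: Klrc1 (NKG2A) was higher in CD44hi by 2.33 in WT and 1.75 in Dusp2-/- (adjusted p = 5e-05 and 9.5e-05), and Klrd1 (CD94) by 1.00 in WT (adjusted p = 0.00126), with 0.29 in Dusp2-/- (adjusted p = 0.0671). Of 16 listed receptors of class I, 8 were tested. In CD44hi, 6 were higher and 1 lower in WT, and 5 higher and 2 lower in Dusp2-/-, beside 15.4% and 23.6% of all genes called higher. Klra3 and Klra7 were at 0 FPKM in both CD44lo libraries. In WT and Dusp2-/- CD44lo, Lilrb4a was at 0.210 and 0.553 FPKM and Klrk1 at 0.582 and 0.822. These genes passed the filter on low values only through CD44hi, which set their direction, so the counts of higher receptors are biased upward.

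B2m, the light chain shared by every class I molecule, stood at 3754 FPKM in WT CD44lo and 4366 in Dusp2-/- CD44lo. In CD44hi it stood at 3082 and 2715 in WT and at 2533 and 2793 in Dusp2-/-. The 2 CD44lo libraries lay above all 4 CD44hi libraries, which was so for 15.1% of genes tested, and Dusp2-/- CD44lo was the highest library. The log2 difference was -0.71 in Dusp2-/- (SE 0.187, adjusted p = 0.0240) and -0.38 in WT (SE 0.187, adjusted p = 0.180). Without replicate 1 of Dusp2-/- CD44hi the adjusted p was 0.363, and without replicate 2 it was 0.249.

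The transporter subunits work as a pair, and no test compared them with each other. Tap2 stood at 63.5 FPKM in WT CD44lo, against 43.7 and 35.7 in WT CD44hi, and at 52.8 in Dusp2-/- CD44lo, against 45.2 and 42.1 in Dusp2-/- CD44hi. Its log2 difference was -0.67 in WT (SE 0.124, adjusted p = 0.0105), where it was called, and -0.27 in Dusp2-/- (SE 0.124, adjusted p = 0.126), where it was not. Tap1 stood at 118 FPKM in WT CD44lo and 103 and 84.3 in WT CD44hi, but at 90.6 in Dusp2-/- CD44lo and 89.9 and 84.2 in Dusp2-/- CD44hi. In Dusp2-/- the Tap1 values of the fractions lay close together. The log2 difference of Tap1 was -0.34 in WT (SE 0.125, adjusted p = 0.0906) and -0.06 in Dusp2-/- (SE 0.125, adjusted p = 0.735), with a WT value of -0.19 without WT CD44hi replicate 2. The Dusp2-/- value was 0.08 after rescaling to an equal FPKM total.

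Tapasin (Tapbp) and TAPBPR (Tapbpl) edit the peptide bound by the heavy chain, the first within the loading complex and the second outside it. Tapbp stood at 216 FPKM in WT CD44lo and 209 in Dusp2-/- CD44lo, against 199 and 168 in WT CD44hi and 159 and 153 in Dusp2-/- CD44hi. Its log2 difference was -0.42 in Dusp2-/- (SE 0.117, adjusted p = 0.0302) and -0.23 in WT (SE 0.117, adjusted p = 0.180), where it was -0.36 without WT CD44hi replicate 1 and -0.11 without replicate 2. Tapbpl was at 80.7 and 84.5 FPKM in the WT and Dusp2-/- CD44lo libraries, against 56.4 and 47.5 in WT CD44hi and 67.5 and 66.7 in Dusp2-/- CD44hi. It was called in WT, at -0.63 (SE 0.109, adjusted p = 0.00815), and lay just outside the threshold in Dusp2-/-, at -0.33 (SE 0.109, adjusted p = 0.0514). The Dusp2-/- call of Tapbp was lost without replicate 1 (adjusted p = 0.0754) or replicate 2 (0.119) of Dusp2-/- CD44hi and after rescaling to an equal FPKM total (0.111).

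Nlrc5, the transactivator, stood at 41.5 FPKM in WT CD44lo and 30.6 in Dusp2-/- CD44lo. Its CD44hi values were 28.2 and 24.1 in WT and 26.7 and 26.4 in Dusp2-/-. WT CD44lo stood apart above the other 5 libraries. The log2 difference between the fractions was -0.65 in WT (SE 0.103, adjusted p = 0.00583) and -0.20 in Dusp2-/- (SE 0.103, adjusted p = 0.164).

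Erap1 went the other way. It stood at 34.2 FPKM in WT CD44lo and 30.3 in Dusp2-/- CD44lo, against 42.1 and 30.9 in WT CD44hi and 49.6 and 51.3 in Dusp2-/- CD44hi. In WT the CD44hi libraries lay on both sides of the CD44lo library, and in Dusp2-/- both lay above it. Erap1 was called higher in Dusp2-/- CD44hi, by 0.72 (SE 0.163, adjusted p = 0.0149), and not in WT, at 0.08 (SE 0.163, adjusted p = 0.755), where the value was -0.14 without WT CD44hi replicate 1 and 0.29 (adjusted p = 0.0164) without replicate 2. It was the 1 member higher in CD44hi in Dusp2-/-, a direction in which 23.6% of all genes tested were called.

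**Figure D2:**
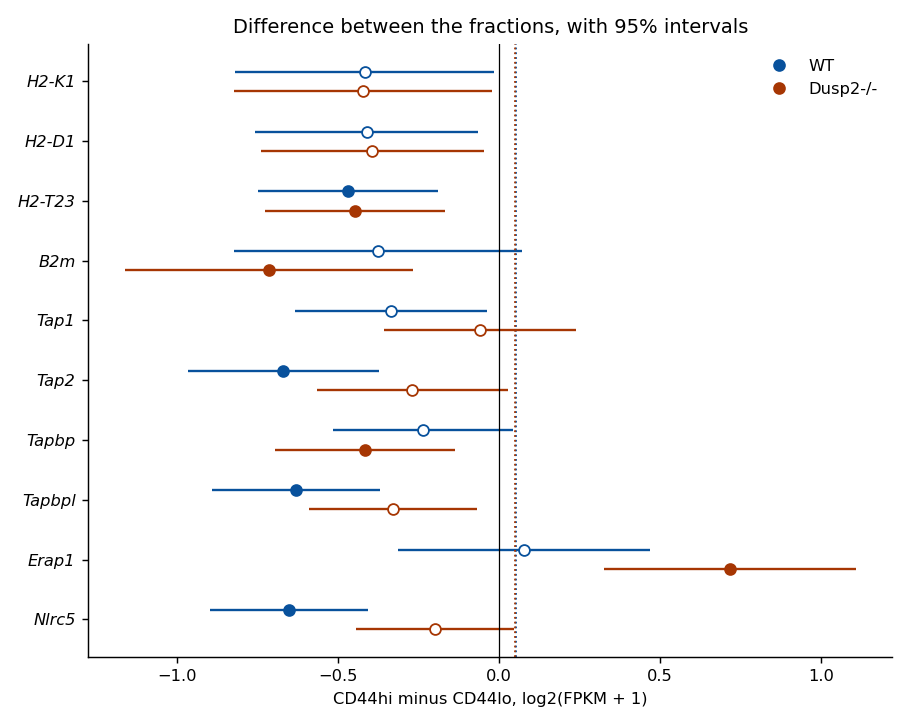
Log2(FPKM + 1) difference, CD44hi minus CD44lo, of each gene in WT (blue) and Dusp2-/- (brown), with 95% intervals from limma. Filled points have an adjusted p under 0.05 and dotted lines mark the median of all genes tested. Points lie below 0 for 9 of 10 genes in each genotype, with Erap1 above it.

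Counted over the set, 4 of 10 genes were lower in WT CD44hi (H2-T23, Tap2, Tapbpl and Nlrc5), against 10.7% of all genes tested called lower and 15.4% called higher. In Dusp2-/-, 3 of 10 were lower (H2-T23, B2m and Tapbp), against 16.5% of all genes. Values were negative for 9 of 10 genes in both, with a median of -0.41 in WT and -0.36 in Dusp2-/-, where the medians over all genes were 0.05 and 0.05. Both CD44lo libraries exceeded all 4 CD44hi libraries for 8 of 10 genes, all but Tap1 and Erap1, which was so for 15.1% of genes tested. A fit with fraction and genotype as additive terms, using all 6 libraries for 1 fraction difference, called the same 8 genes lower (adjusted p 0.0106 to 0.0454), against 10.8% of all genes. In it the fraction difference of Tap1 was -0.20 (adjusted p = 0.216) and that of Erap1 0.40 (adjusted p = 0.121).

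These counts rest on few libraries. Without WT CD44hi replicate 1 or 2 the WT difference was -0.58 or -0.36 for H2-T23 and -0.81 or -0.53 for Tap2. It was -0.75 or -0.51 for Tapbpl and -0.76 or -0.54 for Nlrc5. Leaving out a Dusp2-/- library cannot change these WT differences. In a fit without 1 CD44hi library, the spread comes from the CD44hi pair of the other genotype alone. Calls kept, gained or lost in such fits are therefore no measure of stability. With no filter on low values, none of the 10 calls of a member in the fraction and genotype tests was made (adjusted p 0.0768 to 0.245). Without WT CD44hi replicate 1, 9 of the 10 genes were called between fractions in each genotype, while calls over all 9691 genes rose from 2527 to 3752 in WT and from 3888 to 5505 in Dusp2-/-. Without replicate 2, 8 were called in WT and 9 in Dusp2-/-, with 3815 and 5503 over all genes. Without either Dusp2-/- CD44hi library 1 was called in Dusp2-/-, with 2533 or 2505 over all genes. Scaling moved the split of all genes: 1490 higher and 1037 lower in WT became 1190 and 1403 with median-ratio scaling, and 2285 higher and 1603 lower in Dusp2-/- became 1970 and 2037 with median-ratio scaling and 3154 and 969 after rescaling to an equal FPKM total. That rescaling moved the median of all genes in Dusp2-/- from 0.05 to 0.18 and the median of the 10 genes from -0.36 to -0.22. Beside the class I genes, the mitochondrial transcripts were also lower in CD44hi (4 of 13 called lower in WT and 6 in Dusp2-/-), as were markers of CD8 T cells (3 of 7 and 6 of 7), whose summed level was 1588 FPKM in WT CD44lo, 1223 to 1313 in WT CD44hi, 1607 in Dusp2-/- CD44lo and 1091 to 1134 in Dusp2-/- CD44hi. Their part in the class I differences was not tested. Markers of antigen-presenting and B cells, which are rich in class I, were scarce. The dendritic and myeloid list (7 genes) summed to 3.03 FPKM in WT CD44lo and 5.54 to 6.37 in WT CD44hi. In Dusp2-/- it summed to 4.04 in CD44lo and 7.15 to 7.59 in CD44hi. Of the 2 myeloid genes tested, Itgax stood at 0.159 and 0.480 FPKM in WT and Dusp2-/- CD44lo, against 1.20 to 1.67 in CD44hi. It passed the filter on low values only through CD44hi, so its call as higher there is no support for a difference. Cd68 stood at 2.55 and 2.90 FPKM in those CD44lo libraries and at 3.24 to 4.11 in CD44hi, and was not called. Named after their values were seen, Lyz2 was at 0 in Dusp2-/- CD44lo and all CD44hi libraries and Flt3 in all but Dusp2-/- CD44hi. Other genes of the list were present. Zbtb46 stood at 0.145 FPKM in WT CD44lo, 0.619 and 0.653 in WT CD44hi, 0.665 in Dusp2-/- CD44lo and 1.86 and 1.82 in Dusp2-/- CD44hi. The part of antigen-presenting cells in the class I differences was not tested. The B cell list (2 genes) reached at most 24.7 FPKM, nearly all of it Cd79b, highest in Dusp2-/- CD44hi.

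The second comparison asks what loss of Dusp2 changed in CD44hi cells. Here most of the set lay near 0, and Tapbpl and Erap1 were higher in Dusp2-/-. Tapbpl averaged 67.1 ± 0.523 FPKM in Dusp2-/- CD44hi and 52.0 ± 6.27 in WT CD44hi (SD, n = 2 libraries each), a log2 difference of 0.37 (SE 0.089, limma adjusted p = 0.0273). Erap1 averaged 50.4 ± 1.19 FPKM against 36.5 ± 7.92 (SD, n = 2 each), a log2 difference of 0.47 (SE 0.133, limma adjusted p = 0.0427). The Erap1 value was 0.69 without WT CD44hi replicate 1 and 0.25 without replicate 2 (adjusted p = 0.0216). For both genes each Dusp2-/- CD44hi library lay above each WT CD44hi library. Such separation is common, since the CD44hi libraries of the genotypes did not overlap, in either direction, for 68.2% of all genes tested. With 2 of 10 called higher and 0 lower, the set stood beside 12.9% of all genes called higher, 13.8% lower and 26.7% in either direction. The split of all genes, 1248 higher and 1338 lower, became 1292 and 914 after rescaling to an equal FPKM total, which left both genes called higher. Tapbpl was not called without replicate 1 (adjusted p = 0.0781) or replicate 2 (0.0726) of Dusp2-/- CD44hi, and Erap1 was not called without the variance trend (0.0603). Mitochondrial transcripts were also higher in Dusp2-/- CD44hi (8 of 13) and CD8 T cell markers lower (4 of 7), and their part in these differences was not tested.

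The classical chains gave no detectable genotype difference, within limits that the intervals set. H2-K1 differed by 0.04 (95% interval -0.28 to 0.37), H2-D1 by -0.01 (-0.29 to 0.27) and H2-T23 by -0.00 (-0.23 to 0.23), with the libraries of the genotypes overlapping for all 3. For B2m the difference was -0.12 (-0.49 to 0.24), for Tap1 -0.10 (-0.34 to 0.15), for Tap2 0.14 (-0.10 to 0.38) and for Nlrc5 0.03 (-0.18 to 0.23), again with overlapping libraries. Differences within these intervals, which reach about the size of the fraction differences, were not detectable with 2 libraries a side. Tapbp was lower in both Dusp2-/- CD44hi libraries than in either WT one, with a log2 difference of -0.23 (SE 0.095, adjusted p = 0.120), and was not called. Libraries of the genotypes did not overlap for 3 of 10 genes, against 68.2% of all genes tested. Without WT CD44hi replicate 1, H2-K1 (0.21, adjusted p = 0.0339) and Tap2 (0.28, 0.0175) were called as well, and without replicate 2, Tap1 (-0.24, 0.0315) and Tapbp (-0.35, 0.00699), while calls over all genes rose from 2586 to 4105 and 3106. Tapbp was at -0.11 (adjusted p = 0.152) without replicate 1.

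**Figure D3:**
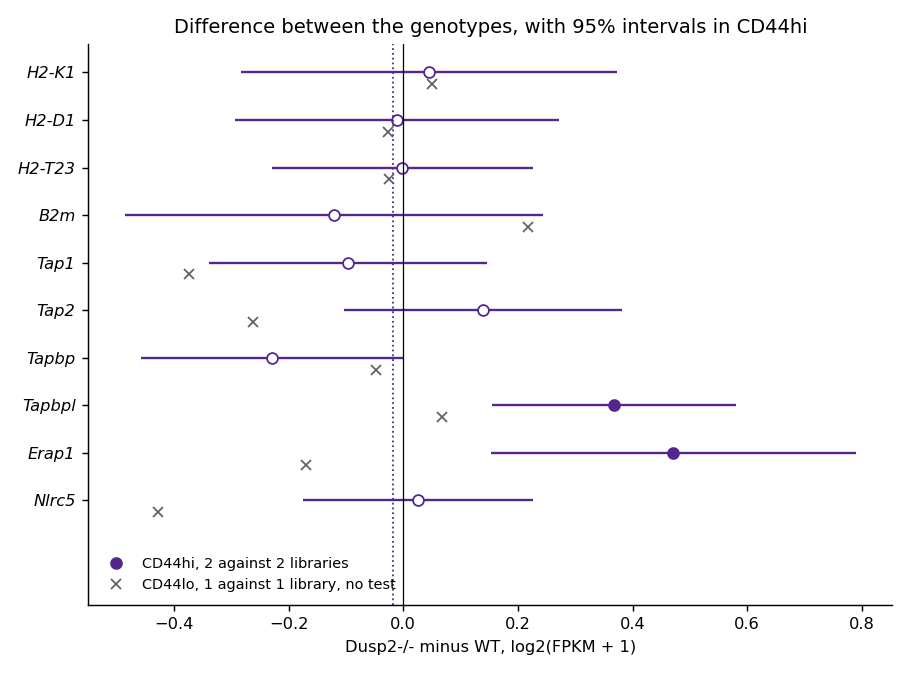
Log2(FPKM + 1) difference, Dusp2-/- minus WT, of each gene in CD44hi with 95% intervals from limma (filled points have an adjusted p under 0.05, the dotted line is the median of all genes tested), and in CD44lo (crosses, 1 library a side, no test). Tapbpl (0.37) and Erap1 (0.47) stand to the right in CD44hi, and Nlrc5 (-0.43) and Tap1 (-0.37) to the left in CD44lo.

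In CD44lo each genotype had 1 library, so differences there are described without a test. The log2 difference, Dusp2-/- minus WT, was -0.43 for Nlrc5. It was -0.37 for Tap1, with Tap2 at -0.26 and Erap1 at -0.17. B2m stood at 0.22. The remaining 5 genes lay within -0.05 and 0.07, so the classical chains, H2-T23 and the 2 editors were near equal between these 2 libraries. The transactivator was thus lower in Dusp2-/- CD44lo by more than any heavy chain.

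Whether the fraction difference itself depended on genotype was tested as an interaction, and 0 of 10 genes were called, against 4.22% of all genes. At an unadjusted p under 0.05 there were 2, Erap1 (0.64, SE 0.231, unadjusted p = 0.0291, adjusted p = 0.135) and Nlrc5 (0.45, SE 0.145, unadjusted p = 0.0179, adjusted p = 0.109). The share of all genes at that unadjusted threshold was not counted. The limma voom fit on recovered reads also called 0. The interaction of the 3 heavy chains was between -0.00 and 0.02, with 95% intervals as wide as -0.57 to 0.56 for H2-K1. So a call of Tap2, Tapbpl and Nlrc5 in WT alone, or of B2m, Tapbp and Erap1 in Dusp2-/- alone, is not a shown difference between genotypes. The count was 5 without WT CD44hi replicate 1 (Tap1, Tap2, Tapbpl, Nlrc5 and Erap1) and 3 without replicate 2 (B2m, Nlrc5 and Erap1), while calls over all genes rose from 409 to 3067 and 1695. Over all genes the split was 265 higher and 144 lower, which became 379 and 43 after rescaling to an equal FPKM total, a step that moved the median of all genes from -0.01 to 0.13.

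Since all 10 genes were higher in 1 of the WT CD44hi libraries, ratios of 2 genes within a library were also set side by side. The pairs were chosen after their values were seen, and no test was made. Tapbpl stood at 0.283 times Tapbp in both WT CD44hi libraries, at 0.424 and 0.435 times in Dusp2-/- CD44hi, and at 0.374 and 0.405 times in WT and Dusp2-/- CD44lo. The balance of the editors was thus lowest in WT CD44hi, where the pair of libraries gave the same value. Tap2 stood at 0.426 and 0.424 times Tap1 in WT CD44hi, at 0.503 and 0.499 in Dusp2-/- CD44hi, and at 0.539 and 0.582 in WT and Dusp2-/- CD44lo. The ratio of the transporter pair was thus higher in CD44lo than in CD44hi in both genotypes, with 1 CD44lo library each. How many other gene pairs separate in this way was not counted. Erap1 stood at 0.410 and 0.367 times Tap1 in WT CD44hi and 0.552 and 0.609 times in Dusp2-/- CD44hi, against 0.290 in WT CD44lo and 0.334 in Dusp2-/- CD44lo. Nlrc5 stood at 0.0285 and 0.0307 times H2-K1 in WT CD44hi and at 0.0282 and 0.0302 times in Dusp2-/- CD44hi, which overlap, while the CD44lo libraries lay on either side, at 0.0353 in WT and 0.0251 in Dusp2-/-.

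**Figure D4:**
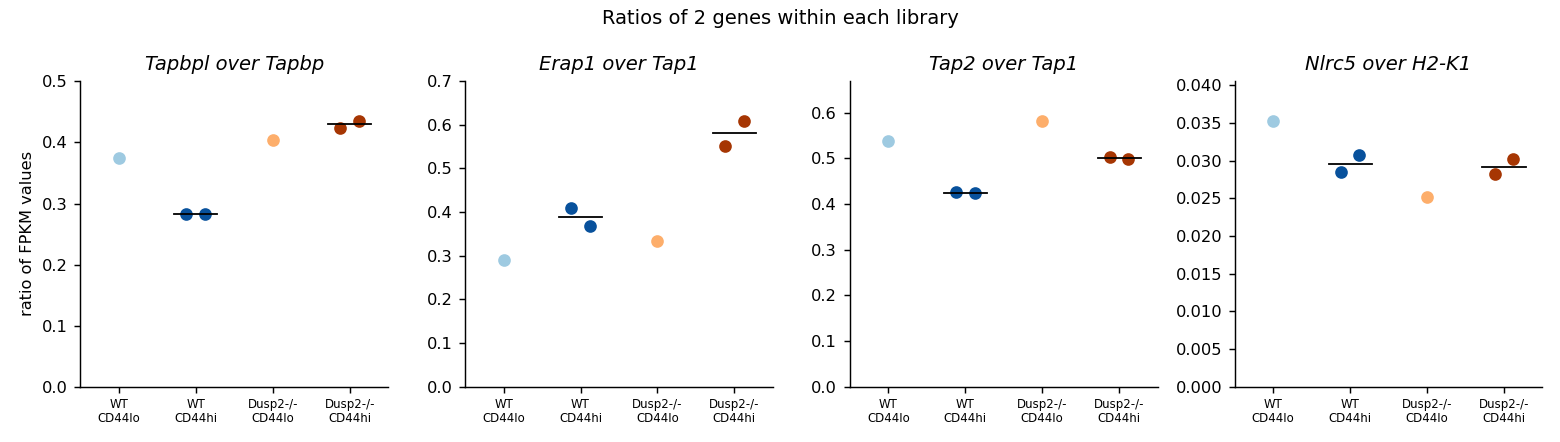
Ratio of the FPKM values of 2 genes within each library (linear axes from 0), with 1 point per library and a line at the mean of each CD44hi pair. Tapbpl over Tapbp is 0.283 in both WT CD44hi libraries and 0.424 and 0.435 in Dusp2-/- CD44hi.

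Several regulators of these genes were called between genotypes in CD44hi. Of 17 listed regulators, 9 were lower and 3 higher in Dusp2-/- CD44hi, with a median of -0.24 against -0.02 over all genes, of which 13.8% were called lower and 12.9% higher. The 4 most abundant were Nfkb1 (0.10, adjusted p = 0.303), Irf1 (-0.84, adjusted p = 0.00108), Rela (-0.24, adjusted p = 0.0400) and Socs1 (-0.30, adjusted p = 0.0445). Irf1, an interferon-induced activator of class I promoters, stood at 73.7 and 68.9 FPKM in WT CD44hi and 40.1 and 38.8 in Dusp2-/- CD44hi, while H2-K1 and H2-D1 overlapped between the same libraries. Chosen after its value was seen, Irf9, an interferon-activated factor, was also lower there (-0.55, adjusted p = 0.00315). Between fractions 6 regulators were lower and 3 higher in CD44hi in WT, and 9 lower and 4 higher in Dusp2-/- (all genes: 10.7% lower and 15.4% higher in WT, 16.5% and 23.6% in Dusp2-/-), with Irf1 at -0.84 and -1.23 (adjusted p = 0.000847 and 0.000194). Of 7 interferon receptor and kinase genes, 2 were lower and 1 higher in Dusp2-/- CD44hi, and between fractions 3 were lower and 0 higher in WT CD44hi and 3 lower and 1 higher in Dusp2-/- CD44hi, beside the same shares of all genes. Ifngr1, a chain of the interferon γ receptor, was the lowest of these, at -1.04 in WT and -1.44 in Dusp2-/- (adjusted p = 0.00102 and 0.000259).

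Of 29 listed class I and class I-like chains, 21 were in the table and 10 were tested, of which 6 were called lower in WT CD44hi and 5 in Dusp2-/- CD44hi, beside 10.7% and 16.5% of all genes, and none higher. The log2 difference was above 0 for 1 of the 10 in each genotype. The 4 most abundant were H2-T22 (-0.38 in WT and -0.55 in Dusp2-/-), H2-Q4 (-0.53 and -0.80), H2-T24 (-1.08 and -0.33) and H2-Q7 (-0.69 and -0.21), of which the last 2 were not called in Dusp2-/- (adjusted p = 0.101 and 0.241). Between genotypes 1 of the 10 was called, H2-T10, named after its value was seen, at -0.57 (adjusted p = 0.00282). Their values are uncertain, since 32.9% of the 50-base stretches of H2-T10 transcripts, 34.5% of those of H2-T22 and 26.4% of those of H2-Q7 also occur in another gene. Psmb9 and Psmb8, whose RefSeq genes lie on either side of Tap1, and Psmb10 encode the interferon-induced catalytic subunits. Chosen after their values were seen, they were lower in CD44hi, at -0.61, -0.56 and -1.08 in WT and -0.63, -0.73 and -1.18 in Dusp2-/-, all called.

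Peptide supply genes were called in both directions between fractions, and folding partners in 1. Of 15 peptide generation genes, 5 were lower and 2 higher in WT CD44hi, and 6 lower and 3 higher in Dusp2-/- CD44hi. Of all genes, 10.7% were called lower and 15.4% higher in WT, and 16.5% and 23.6% in Dusp2-/-, so the higher calls among the 15 were near or under the share of all genes. The proteasome activator subunits Psme2 and Psme1 were lower in CD44hi, at -0.36 and -0.41 in WT and -0.45 and -0.72 in Dusp2-/-, and Psme3 was at 0.16 and 0.08, not called. Psmb5, a constitutive catalytic subunit, was the largest genotype difference among the 15, at -1.42 in CD44hi (adjusted p = 0.000269). There 3 were lower and 1 higher, beside 13.8% and 12.9% of all genes. In CD44lo, with 1 library a side and no test, Psmb5 stood at 63.5 FPKM in Dusp2-/- and 121 in WT. Of 11 folding partners in the endoplasmic reticulum, 0 were called in WT and 7 were higher in Dusp2-/- CD44hi than in CD44lo, with medians of 0.21 and 0.47, beside 15.4% and 23.6% of all genes called higher. The most abundant were Calr (0.29, not called), Hspa5 (0.47, adjusted p = 0.0457), Pdia3 (0.47, adjusted p = 0.0217) and Canx (0.67, adjusted p = 0.00909) in Dusp2-/-. At unadjusted p under 0.05 the WT comparison held 3 of the 11, a threshold at which the share of all genes was not counted. No interaction was called among them, so this contrast between the genotypes was not shown.

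**Figure D5:**
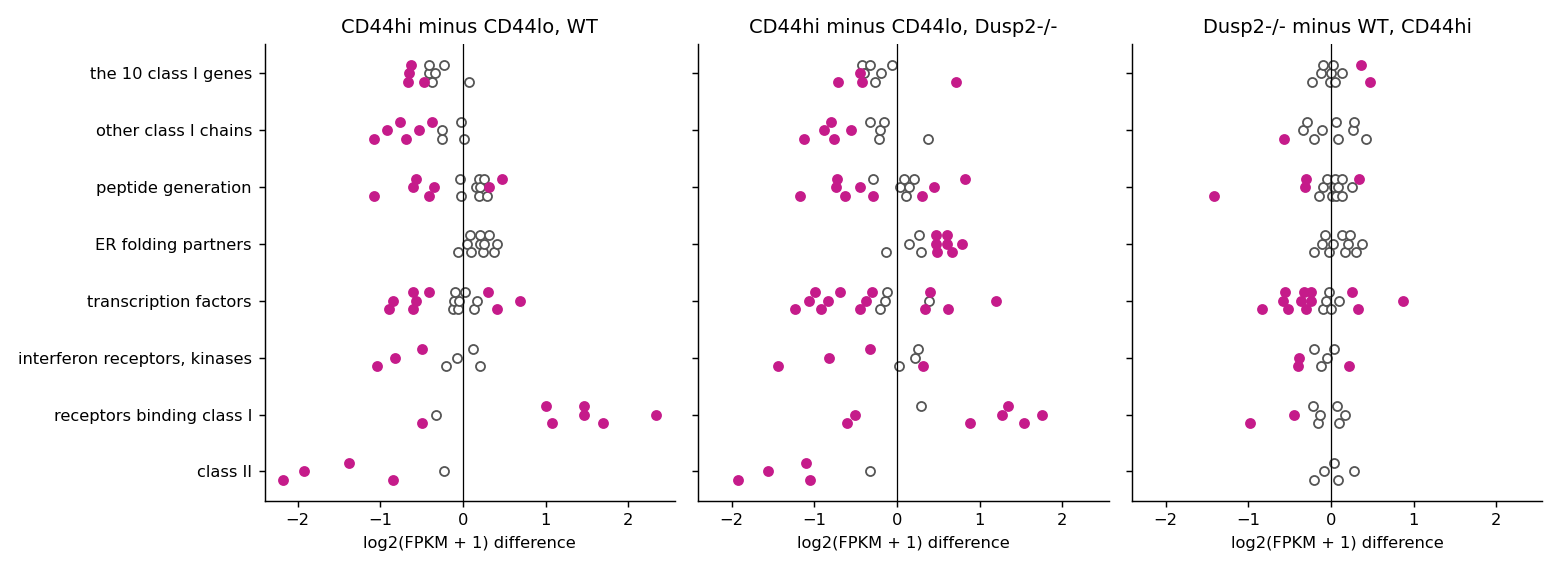
Log2(FPKM + 1) differences of single genes, grouped by list, for CD44hi minus CD44lo in WT and in Dusp2-/- and for Dusp2-/- minus WT in CD44hi. Filled points have a limma adjusted p under 0.05. The 10 class I genes and the other class I chains lie mostly below 0 in both fraction panels, and ER folding partners mostly above it.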

How the data were processed

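FPKM per gene in 6 libraries were deposited by the authors as 1 table; the submitters' processing notes name HISAT2 2.0.5 and the builds mm39 and hg38 with no role, and the labels say 10X Genomics although the columns are bulk libraries. No source used here names the counter, annotation or strand setting. Values were put on the scale log2(FPKM + 1), so differences of low genes are understated, and genes with a mean under 1 FPKM were left out. limma 3.58.1 (R 4.3.3) was fitted to 9691 genes as a model of group means (residual degrees of freedom 2) with a trended prior, and p-values were adjusted by Benjamini-Hochberg (threshold 0.05). FPKM steps gave whole reads for 100% of 16220 rows (tolerance 1e-06 reads), used in a limma voom alternative. The members and lists were chosen with earlier results of these data known. Named genes are the 10 members and the 4 most abundant genes of a list; others are said to be chosen after their values were seen. Promoters came from RefSeq (GRCm38.p6) and transcripts from GENCODE M21. Same-numbered CD44hi libraries did not deviate together (r = 0.022 across genes, which are not independent replicates).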

Additional observations from a re-analysis of the deposited data

How the results depend on the processing

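Of the single-gene values of the 10 class I genes, 131 of 160 kept their direction and side of the threshold over the alternatives in the CD44hi genotype comparison, 128 of 150 and 110 of 150 in the WT and Dusp2-/- fraction comparisons and 111 of 130 in the interaction. Several alternatives could not change a direction. Other filters, no variance trend, the replicate block and leaving out a CD44lo library left each genotype difference in CD44hi as it was. These counts therefore overstate stability. The cause of the changes below was not tested, apart from the libraries or genes that each alternative leaves out or adds.

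With no filter on low values, members called fell to 0 in the genotype and both fraction comparisons, and all genes called were 2 (genotype), 1170 (WT fractions), 2085 (Dusp2-/- fractions) and 39 (interaction). Genotype values near 0 changed sign: H2-D1 and H2-T23 were 0.00084 and 0.0095 with median-ratio scaling, 0.037 and 0.045 rescaled to a total of 1000000 and 0.051 and 0.046 with the length trend removed, which also gave B2m 0.0058 and Nlrc5 -0.043. Median-ratio scaling and limma voom on recovered reads each called 7 members in the Dusp2-/- fractions, and rescaling called 2, with Tap1 at 0.080. Without a variance trend 1 member was called between genotypes. The additive model gives 1 fraction difference for both genotypes together, by which 8 members were called. Its 1 genotype difference, over both fractions, called 0 members and 1008 genes, with Nlrc5 at -0.13. For the interaction, median-ratio scaling called 684 genes, no variance trend 117 and length trend removed 238, and H2-K1 was 0.15 when rescaled and 0.093 with the length trend removed.

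The replicate block (same-numbered CD44hi libraries, which share only a number) called 1565 genes and 3 members in the interaction (Tap2, Nlrc5 and Erap1), put Tap1 at 0.036 in the Dusp2-/- fractions, and ended the Dusp2-/- call of B2m (limma adjusted p = 0.0871).

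Leaving out each library in turn gave 1077 to 4105 genes and 1 to 4 members for genotype, 2158 to 3815 and 4 to 9 for WT fractions, 2505 to 5505 and 1 to 9 for Dusp2-/- fractions, and 348 to 3067 and 0 to 5 for the interaction. With a CD44hi library left out, the spread came from the CD44hi pair of the other genotype alone, so these counts are no measure of stability. Genotype values ran from -0.12 to 0.21 for H2-K1, -0.14 to 0.12 for H2-D1, -0.11 to 0.11 for H2-T23, -0.24 to 0.045 for Tap1, -0.0039 to 0.28 for Tap2 and -0.083 to 0.13 for Nlrc5. Erap1 in WT fractions ran from -0.14 to 0.29, and the interaction from -0.17 to 0.16 for H2-K1, -0.11 to 0.14 for H2-D1 and -0.087 to 0.13 for H2-T23.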

Other observations

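Of 10 listed class II genes, 5 were tested, and H2-Aa, H2-Ab1 and H2-Eb1 were too low to be. Of the 5, 4 were lower in CD44hi in each genotype, beside 10.7% of all genes in WT and 16.5% in Dusp2-/-. Among the 4, H2-DMb1 stood at 0.829 to 1.17 FPKM in CD44hi, against 4.07 in WT CD44lo and 3.12 in Dusp2-/- CD44lo. It passed the filter on low values only through CD44lo, which set its direction, so the count of lower genes is biased upward. H2-DMa, a chain of the class II peptide editor, stood at 87.3 FPKM in WT CD44lo and 82.7 in Dusp2-/- CD44lo, against 22.8 and 21.9 in WT CD44hi and 20.3 and 21.9 in Dusp2-/- CD44hi. Its log2 difference was -1.92 in both genotypes (limma adjusted p = 8.11e-05 in WT and 7.31e-05 in Dusp2-/-). H2-DMb2, a partner chain, differed by -2.18 in WT and -1.55 in Dusp2-/-, and H2-Oa by -0.85 and -1.10. Between genotypes none of the 5 was called by limma, beside 26.7% of all genes tested. At an unadjusted p under 0.05 there were 0, a threshold at which the share of all genes was not counted. Named after its values were seen, the class II transactivator Ciita was at or under 0.0317 FPKM in every library, and Cd74 (2.61 to 5.46 FPKM) was not called.

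No member spanned a log2 unit over the 6 libraries (0.48 for Tap1 to 0.82 for Tapbpl). Chosen after the values were seen, the gene whose centred log2 profile lay nearest that of Tap2 was H2-Q7, among genes averaging 5 FPKM or more. The root mean square distance of this pair was 0.059 over 6 libraries. For the members, the nearest gene lay at 0.026 (Tapbp) to 0.067 (Tapbpl). A nearest gene is the minimum over many genes and so is close by selection. No particular likeness of Tap2 and H2-Q7 is concluded from this distance. Of the 50-base stretches of H2-Q7 transcripts, 26.4% also occur in another gene, so its values are uncertain.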
